A study of Bos taurus with 54 samples.

Results

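The genes described here encode mitochondrial chaperones and proteases: HSPD1, HSPE1, TRAP1, GRPEL1, HSCB, LONP1, CLPP and CLPX. The 8 genes were chosen by symbol, by a rule that uses no measured value, from the 32637 genes listed for every library. Earlier results of these data were known when they were chosen. Whole blood of 15 male Holstein calves in climate-controlled rooms was taken in the morning (label 6AM) under thermoneutral conditions, the control, and in the evening (label 6PM) after 12 h of heat stress. Red blood cells were lysed before RNA extraction. Libraries were made from this RNA with 2 kits that read the 3′ ends of transcripts, SMART-Seq v4 3′ DE from Takara and QuantSeq 3′ from Lexogen, 27 with each kit and 54 in all. Each kit gave 13 control and 13 heat stress libraries, and 12 calves had both times in a kit. All heat stress samples were evening samples and all control samples were morning samples, so heat and time of day cannot be told apart. Calf 20 gave 1 library per kit, for which the labels and the study's sample list disagree on the time, and neither library was used to compare heat stress with control.

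Mitochondria take up most of their proteins unfolded from the cytosol, and a set of chaperones in the matrix folds them. HSPD1 (HSP60) and its lid HSPE1 (HSP10) form the folding chamber of the matrix, TRAP1 is the mitochondrial member of the HSP90 family, and GRPEL1 is the nucleotide exchange factor of the mitochondrial HSP70, HSPA9. HSCB is a J-protein that works with HSPA9 in handing on iron-sulfur clusters. LONP1 is an ATP-dependent protease of the matrix, and CLPP is a protease barrel that is fed by the unfoldase CLPX. Several of these genes are known targets of the mitochondrial unfolded protein response, a programme separate from the cytosolic heat shock response, although HSPD1 and HSPE1 also carry heat shock elements.

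In the ARS-UCD2.0 annotation HSPD1 (gene ID 511913) lies on chromosome 2 from 86035475 to 86045870, and HSPE1 (281833) lies beside it from 86046023 to 86048063, with 152 bases between them. This neighbourhood is conserved in mammals, where both genes are transcribed from a shared promoter. LONP1 (510796) and CLPP (535981) are both on chromosome 7, from 18590488 to 18608817 and from 18079516 to 18084741. TRAP1 (514472) is on chromosome 25 from 2999546 to 3048710, GRPEL1 (515580) on chromosome 6 from 113529004 to 113543058, CLPX (100138870) on chromosome 10 from 12092554 to 12129484 and HSCB (786040) on chromosome 17 from 68012846 to 68023701. TRAP1 overlaps DNASE1 by 62 bases, LONP1 overlaps the ribosomal protein gene RPL36 by 4728 bases, and CLPP lies inside ACER1, so reads of these members could be split with or withheld from a neighbour.

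Counts on genes ranged from 5140595 to 20699030 per Takara library and from 4516761 to 58521751 per Lexogen library. The times were compared with edgeR's quasi-likelihood test across all genes kept, and genes with a Benjamini-Hochberg adjusted p under 0.05 were called changed. In Takara, 28.9% of 12620 genes tested were called, 18.4% higher and 10.5% lower under heat stress. With the total count in place of TMM as library size, the Takara calls split into 1303 higher and 2185 lower instead of 2325 higher and 1321 lower, and the median log2 fold change of all genes moved from -0.05 to -0.27. In Lexogen, 5.55% of 11108 genes were called, 5.09% higher and 0.459% lower, and the 616 calls fell to 63 with the calf as a block. The standard errors of the log2 fold changes of all genes had a median of 0.185 in Takara and 0.417 in Lexogen. Of the neutrophil markers, 8 of 10 genes tested were called higher in Takara, with and without the calf as a block, and 6 of 9 in Lexogen, where 0 were called with the block, while 5 of 12 T cell markers were called lower in Takara. In bulk RNA, fewer cells of a type and less RNA per cell cannot be told apart.

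All 8 members passed the filter on low counts in both kits, and 0 of 8 were called in either kit, beside 28.9% of all genes in Takara and 5.55% in Lexogen. At an unadjusted p under 0.05 there were 2 members in each kit, and DESeq2 called 1 member in Takara and 0 in Lexogen. The Takara log2 fold changes of the members ranged from -0.33 to 0.28 with a median of -0.10, where all genes had a median of -0.05. Their 95% confidence intervals reached from 0.643-fold to 1.41-fold under TMM scaling and the test of time alone. With the total count as library size, all 8 members were negative, with a median of -0.29 where all genes had -0.27. The Lexogen fold changes had a median of -0.10, where all genes had -0.08, and their intervals were much wider, from 0.0877-fold to 3.00-fold. In both kits the heat stress and control libraries overlapped for every member. The share of all genes that overlap is not given, nor how often libraries of other genes lie beyond all controls. The overlap and the counts of such libraries below are therefore descriptions only.

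**Figure D1:**
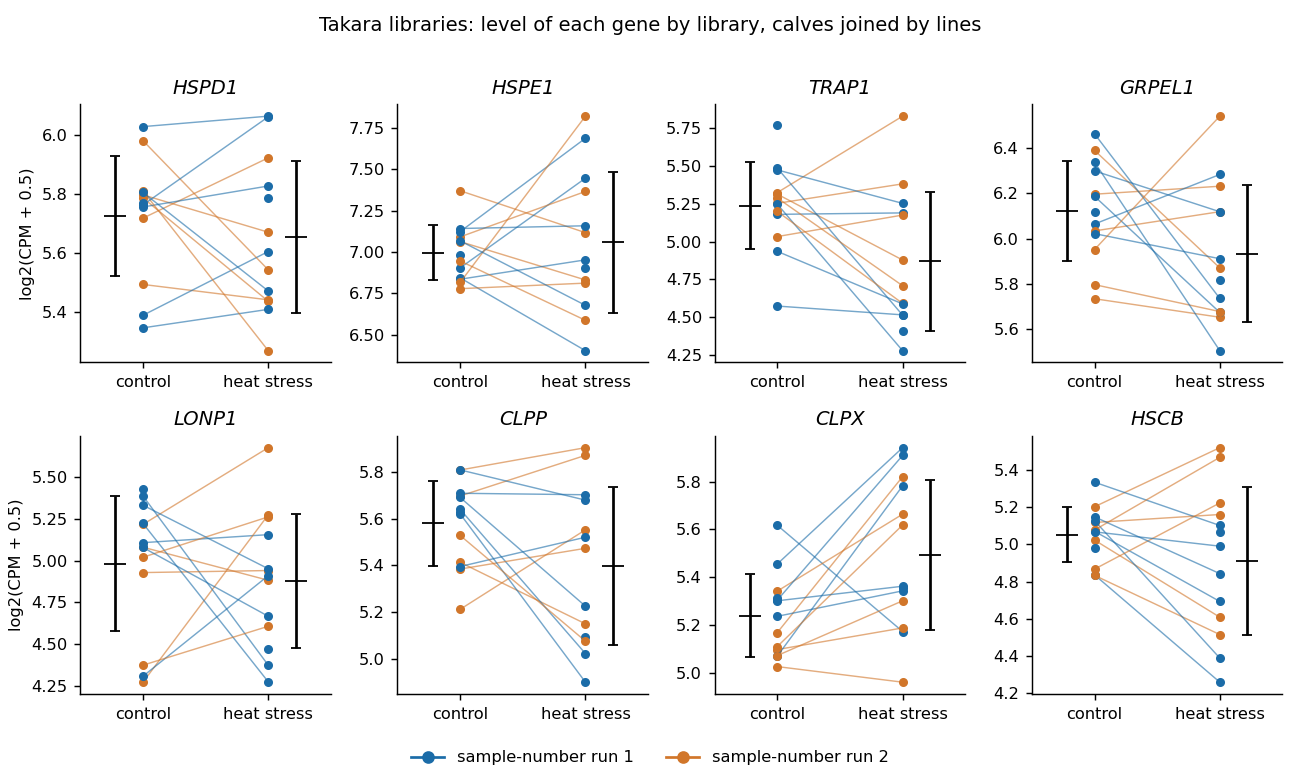
Level of each member in the 26 Takara libraries, as log2(CPM + 0.5) on the y axis of each panel, for control and heat stress; lines join the libraries of 1 calf, colours mark the 2 runs of sample numbers, and the black bars give the mean and SD of the 13 libraries. The heat stress libraries have a larger SD than the control libraries for every member except LONP1, and CLPX has 6 heat stress libraries above all controls. The spread over all genes is not given.

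Levels are given as CPM, the share of a library's counts on genes scaled to 1e6 counts, after TMM scaling, and because the genes differ in how their 3′ ends are read, levels are compared within a gene only. HSPD1, the chamber subunit, had 40.2, 54.1 and 64.8 CPM as the lowest, median and highest of the 13 Takara control libraries, and 38.1, 48.2 and 66.5 CPM under heat stress. The groups overlapped almost completely, with 2 heat stress libraries above all controls and 1 below. Its log2 fold change was -0.06 (SE 0.10, 95% interval -0.27 to 0.14, adjusted p = 0.66), and it was higher in 6 of 12 calves. The Lexogen libraries gave HSPD1 27.3, 41.9 and 111.7 CPM in controls and 14.3, 35.6 and 56.9 CPM under heat stress. Here 4 heat stress libraries lay below all controls and 0 above. The Lexogen log2 fold change was -0.51 (SE 0.24, interval -0.998 to -0.015), with an unadjusted p of 0.0439 and an adjusted p of 0.275, and HSPD1 was lower in 11 of 12 calves.

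HSPE1, which closes the chamber, had 109, 126 and 165 CPM in the Takara control libraries and 84.1, 123 and 226 CPM under heat stress. The medians were close, and the heat stress libraries were more spread, with 3 above and 3 below all controls. The SD of its log2 level was 0.17 in controls and 0.43 under heat stress. The log2 fold change was 0.11 (SE 0.13, interval -0.15 to 0.38, adjusted p = 0.533), and it turned to -0.09 with the total count as library size, where all genes had a median of -0.27. Lexogen gave 137, 211 and 253.5 CPM in controls and 44.5, 174 and 331 CPM under heat stress. The fold change there was -0.03 (SE 0.20, interval -0.43 to 0.38, adjusted p = 0.973), with 6 of 12 calves higher.

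The chamber and its lid work together, so the ratio of their counts was taken within each library, where library size cancels. This and the other ratios below were chosen after values had been seen. From control to heat stress the log2 ratio of HSPD1 to HSPE1 changed by -0.15 in Takara (SE 0.16, n = 12 calves, exact two-sided sign-flip p = 0.377, adjusted p = 0.754 over 8 ratios). Lexogen showed a change of -0.57 (SE 0.24, exact p = 0.0342, adjusted p = 0.188), lower in 10 of 12 calves. Neither passed the adjustment.

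TRAP1 had 23.3, 37.65 and 54.0 CPM in the Takara control libraries and 18.9, 25.6 and 56.4 CPM under heat stress. Only 2 of 13 heat stress libraries were above the control median, and 4 were below all controls, although the highest library of all was also a heat stress library. Its log2 fold change of -0.33 (SE 0.15, interval -0.64 to -0.013) had an unadjusted p of 0.0417 and an adjusted p of 0.108, so it was not called. TRAP1 was lower in 8 of 12 calves.

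The strand of the reads mattered more for TRAP1 than for any other member. Over the 26 Takara libraries it had 10222 unstranded counts and 14244 sense counts, and in Lexogen 1549 unstranded and 2654 sense counts, since reads that overlap 2 genes are not counted without strand. Antisense reads made up 30.9% of its stranded Lexogen counts and 5.81% in Takara. The Takara fold change was the same with sense counts (-0.33, adjusted p = 0.0696), while the Lexogen fold change moved from -1.80 (SE 0.84, adjusted p = 0.262) with unstranded counts to -0.73 (SE 0.40, adjusted p = 0.352) with sense counts. The unstranded Lexogen value rests on few reads, with a median of 60 counts in controls and 8 under heat stress, and 2 libraries of each time at 0. A count of 0 in these libraries allows a level of up to 0.651 CPM per total count, without TMM scaling. That value is taken as 3 counts of the library and covers counting error only. With sense counts TRAP1 had 3.73, 11.8 and 21.2 CPM in the Lexogen controls and 1.41, 5.72 and 20.3 CPM under heat stress, with 0 libraries at 0.

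GRPEL1 had 52.7, 69.0 and 87.7 CPM in the Takara controls and 44.9, 58.0 and 92.6 CPM under heat stress. The heat stress libraries lay lower on the whole, with 4 below all controls and 1 above. Its log2 fold change was -0.18 (SE 0.11, interval -0.40 to 0.05, adjusted p = 0.233), lower in 8 of 12 calves. In Lexogen its level was 2.84, 16.7 and 50.5 CPM in controls and 0, 13.4 and 34.8 CPM under heat stress. The 0 is a count of 0 in a library where that allows up to 0.651 CPM per total count. The Lexogen log2 fold change was -0.53 (SE 0.45, adjusted p = 0.619).

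HSCB, the iron-sulfur co-chaperone, had 28, 33.1 and 39.8 CPM in the Takara controls and 18.6, 31.3 and 45.4 CPM under heat stress. As for every other member except LONP1, the heat stress libraries reached past the controls at both ends, with 5 below and 2 above. The SD of the log2 level was 0.15 in controls and 0.40 under heat stress. The log2 fold change was -0.10 (SE 0.12, interval -0.35 to 0.15, adjusted p = 0.552). HSCB counts were lower in Lexogen, where the groups had medians of 11.1 and 8.27 CPM and the fold change was -0.07 (SE 0.52, adjusted p = 0.973). Both GRPEL1 and HSCB work on HSPA9, and their Takara ratios to HSPA9 changed by -0.06 (SE 0.09, exact p = 0.521) and by -0.04 (SE 0.14, exact p = 0.765), each with an adjusted p of 0.765.

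LONP1 had 18.8, 33.3 and 42.7 CPM in the Takara controls and 18.8, 29.6 and 50.7 CPM under heat stress. The groups overlapped, with 1 heat stress library above all controls and 0 below. Its log2 fold change was -0.10 (SE 0.16, interval -0.42 to 0.22, adjusted p = 0.657), with 7 of 12 calves higher. The Lexogen libraries had 0.334, 6.29 and 20.8 CPM in controls and 1.09, 10.9 and 30.8 CPM under heat stress, a fold change of 0.54 (SE 0.51, interval -0.49 to 1.58, adjusted p = 0.66). Antisense reads made up 20.7% of the stranded Lexogen counts of LONP1, against 1.94% in Takara.

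CLPP, the proteolytic barrel, had 36.6, 49.05 and 55.6 CPM in the Takara controls and 29.4, 43.9 and 59.4 CPM under heat stress. Of the heat stress libraries, 5 were below all controls and 2 above. The log2 fold change was -0.16 (SE 0.11, interval -0.39 to 0.07, adjusted p = 0.299). The Lexogen medians were 7.63 and 8.10 CPM, with a fold change of -0.13 (SE 0.50, adjusted p = 0.943).

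CLPX, the unfoldase that delivers substrates to CLPP, came closest to a call. In Takara it had 32.1, 37.2 and 48.6 CPM in controls and 30.65, 40.6 and 61.0 CPM under heat stress, with 6 heat stress libraries above all controls and 10 of 13 above the control median. Its log2 fold change was 0.28 (SE 0.11, interval 0.06 to 0.50, adjusted p = 0.051), a 1.21-fold increase, and it was higher in 10 of 12 calves. The adjusted p was 0.0401 with DESeq2, 0.045 with the run of sample numbers as a covariate and 0.0853 with the calf as a block. With the total count as library size the value was -0.0083, against a median of -0.27 over all genes, so CLPX lay above the median of all genes under both scalings although its sign turned. Lexogen gave 12.7, 32.75 and 71.6 CPM in controls and 2.78, 49.3 and 104.6 CPM under heat stress, a log2 fold change of 0.39 (SE 0.30, interval -0.21 to 0.99, adjusted p = 0.563), with 9 of 12 calves higher.

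Within libraries, the log2 ratio of CLPX to CLPP, the unfoldase over its protease, rose by 0.43 from control to heat stress in Takara (SE 0.19, n = 12 calves), in 8 of 12 calves. The exact sign-flip p was 0.0469 and the adjusted p was 0.188 over the 8 ratios, so this difference did not pass. The Lexogen change was 0.71 (SE 0.71, exact p = 0.342, adjusted p = 0.754).

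**Figure D2:**
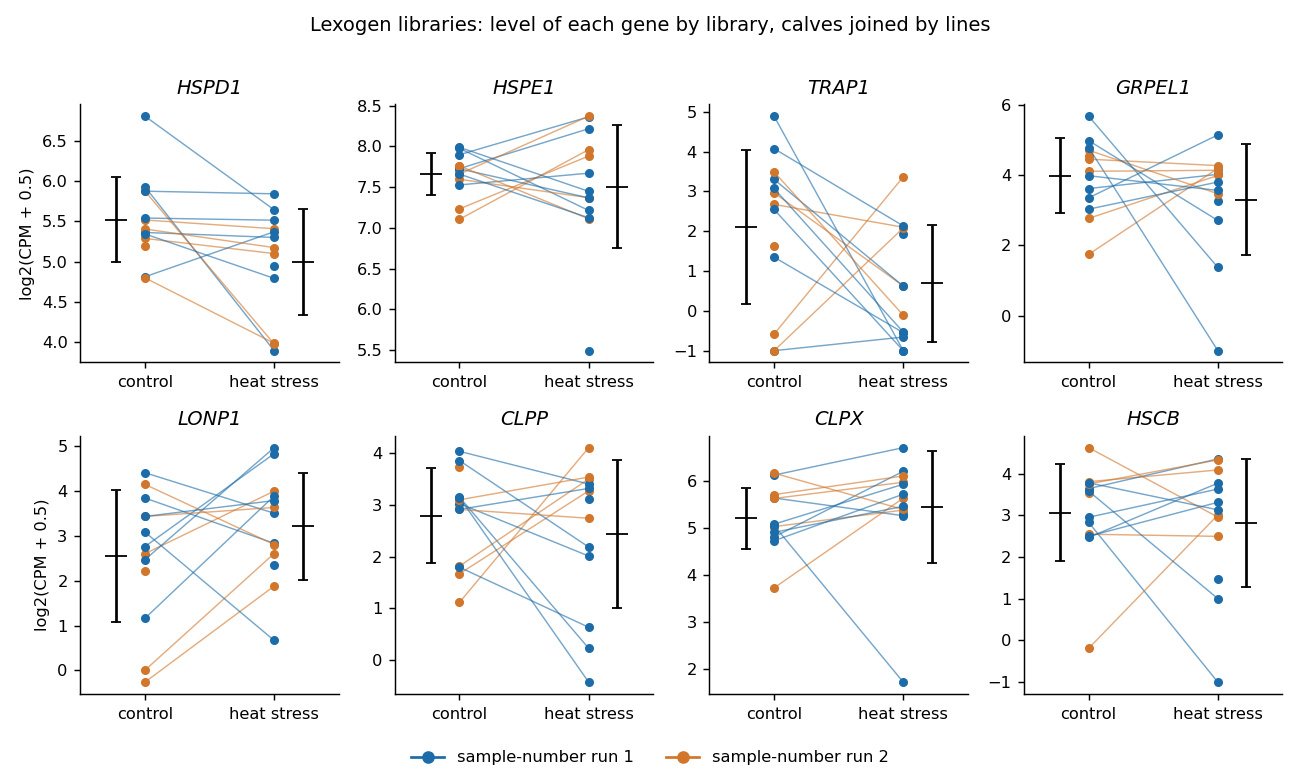
Level of each member in the 26 Lexogen libraries, drawn as for Takara, with log2(CPM + 0.5) on the y axis, calves joined by lines and black bars for the mean and SD of 13 libraries. The spread is wider than in Takara, and the lowest points of the TRAP1, GRPEL1 and HSCB panels include the libraries with 0 counts.

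The cytosolic heat shock genes were read in the same libraries. In Takara 7 of the 10 listed were called higher, beside 18.4% of all genes, led by HSPA1A (inducible HSP70) with a log2 fold change of 2.51, DNAJA1, an HSP40 co-chaperone, with 1.96, and HSPA8, the constitutive HSP70, with 1.38. In Lexogen 3 of 10 were called higher, beside 5.09% of all genes, and HSPA1A again had the largest value of those called, 2.57. With the calf as a block these counts were 7 in Takara and 1 in Lexogen, and with the total count as library size 5 and 3. To compare HSPD1 with each of them directly, the within-library ratio of counts was taken in every calf. The list was chosen with earlier results of these data known, and most of its genes were called higher in Takara. A fall of the ratio there largely restates that rise. In Lexogen all 10 genes had a positive fold change and HSPD1 itself had -0.51, so the ratios restate these values there too. All ratios share HSPD1, and the kits read RNA of the same calves, so counts of ratios are not independent. No ratios of HSPD1 to genes drawn from all genes are given. From control to heat stress the log2 ratio of HSPD1 to HSPA1A changed by -1.68 in Takara (SE 0.43, lower in 12 of 12 calves, exact sign-flip p = 0.0004883, the smallest that 12 pairs allow, adjusted p = 0.00195 over 20 ratios). In Lexogen it changed by -2.40 (SE 0.47, lower in 11 of 12 calves, exact p = 0.00195, adjusted p = 0.00558). The mean ratio of HSPD1 fell against all 10 genes in both kits, past the threshold against 8 in Takara and 7 in Lexogen. HSP90AB1 did not pass in Takara (adjusted p = 0.15). In Lexogen DNAJA1 (adjusted p = 0.0537) and STIP1 (adjusted p = 0.0569) did not pass. BAG3, an HSP70 co-chaperone, was past the threshold in neither kit, with a ratio change of -0.17 in Takara (adjusted p = 0.508) and -0.11 in Lexogen (adjusted p = 0.89).

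**Figure D3:**
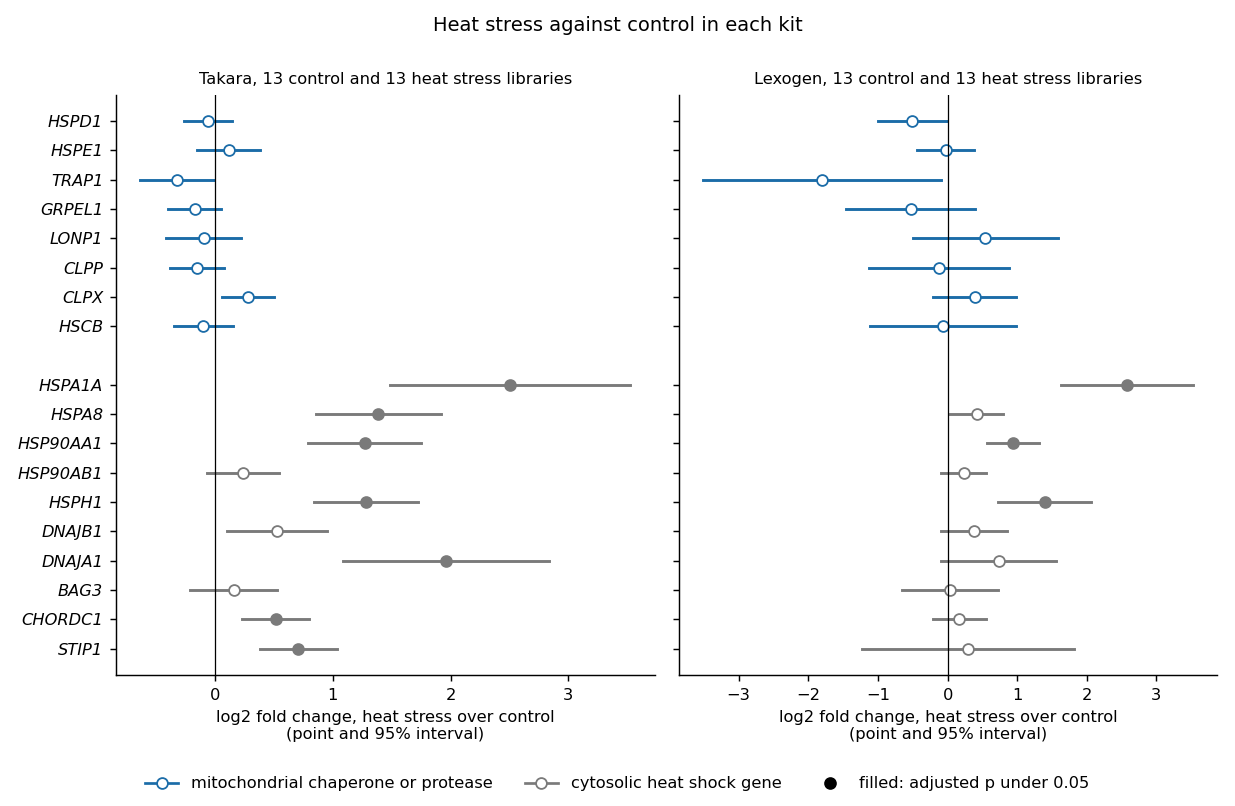
Log2 fold change of heat stress over control with its 95% interval on the x axis, for the 8 members and the 10 cytosolic heat shock genes in each kit, from 13 control and 13 heat stress libraries; filled points have an adjusted p under 0.05. All members have open points, while 7 cytosolic genes in Takara and 3 in Lexogen are filled.

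The changes of single calves were not alike. In Takara the change of TRAP1 ran from -0.97 in calf 15 to 0.51 in calf 14 on the log2 scale, that of LONP1 from -1.01 to 1.00 in the same calves, and that of CLPP from -0.72 in calf 18 to 0.34 in calf 14. Calves 15 and 18 were low for all 3 genes. Of 56 relations between the changes of 2 members, 28 in each kit, 3 passed the adjustment, all in Takara and all among these genes. The share of such relations among pairs of all genes is not given. TRAP1 and CLPP had r = 0.87 (permutation p = 0.00032, rho = 0.85 with p = 0.00075, adjusted p = 0.00896), LONP1 and CLPP had r = 0.86 (permutation p = 0.00031, rho = 0.90 with p = 0.0002, adjusted p = 0.00896), and TRAP1 and LONP1 had r = 0.84 (permutation p = 0.00077, rho = 0.78 with p = 0.00428, adjusted p = 0.0144). Without the 2 calves farthest from the median of the first gene these r were 0.80, 0.72 and 0.69. Within run 1 and run 2 of the sample numbers, with 6 calves each, r was 0.93 and 0.80 for TRAP1 and CLPP, 0.93 and 0.65 for LONP1 and CLPP, and 0.89 and 0.82 for TRAP1 and LONP1. With the total count as library size, a change that shifts all genes of a library alike, they were 0.96, 0.93 and 0.93. HSPD1 and HSPE1 showed no such relation in Takara, with r = -0.03 (permutation p = 0.925, rho = 0.06 with p = 0.851, r = 0.19 without the 2 farthest calves, and 0.52 and -0.39 within the runs). In Lexogen, 0 of 28 relations passed, and r ranged from -0.24 to 0.66.

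The neutrophil markers also changed by different amounts from calf to calf. Their relation to the members was examined after the changes of single calves had been seen. The log2 change of their summed Takara level ran from -0.94 in calf 3 to 4.12 in calf 36, and over all 13 libraries of a time the sum ranged from 4874 to 21430 CPM in controls and from 4660 to 112000 CPM under heat stress. Of the 12 marker genes, PGLYRP1 and CATHL1 did not pass the filter on low counts in either kit. Of 16 relations between the change of a member and that of the neutrophil markers, 2 passed the adjustment. The share of all genes with such a relation is not given, so neither can be called particular to these members. CLPX rose more in calves whose neutrophil markers rose more (r = 0.80, permutation p = 0.00153, rho = 0.87 with p = 0.00054, adjusted p = 0.0245), and TRAP1 fell more (r = -0.75, permutation p = 0.00538, rho = -0.79 with p = 0.00342, adjusted p = 0.043). Without the 2 calves farthest from the median, r was 0.80 for CLPX and -0.82 for TRAP1, and within runs 1 and 2 it was 0.82 and 0.86 for CLPX and -0.81 and -0.83 for TRAP1. Among the 6 calves with the smaller and the 6 with the larger neutrophil changes, r was 0.30 and -0.10 for CLPX and 0.28 and -0.24 for TRAP1, so both relations rest on the gap between these calves. The TMM scaling factors of their heat stress libraries made the same split. They ran from 0.695 to 0.862 in the calves with the larger changes and from 1.01 to 1.21 in the others. The gap thus cannot be told apart from the scaling. With the total count as library size, r was 0.14 for CLPX (adjusted p = 0.686) and -0.75 for TRAP1 (adjusted p = 0.0218). With that library size HSPD1 and CLPP also passed, HSPD1 with r = -0.91 (adjusted p = 0.00032), from -0.54 (adjusted p = 0.276) with TMM, and CLPP with r = -0.74 (adjusted p = 0.0218), from -0.72 (adjusted p = 0.0555). A gene's share of the total count falls where abundant transcripts such as these markers rise. A negative r with that library size therefore cannot be told apart from the scaling. In Lexogen r was -0.45 for CLPX and 0.21 for TRAP1, with adjusted p of 0.334 and 0.606. The part of the neutrophil markers in the changes of the members was not tested.

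**Figure D4:**
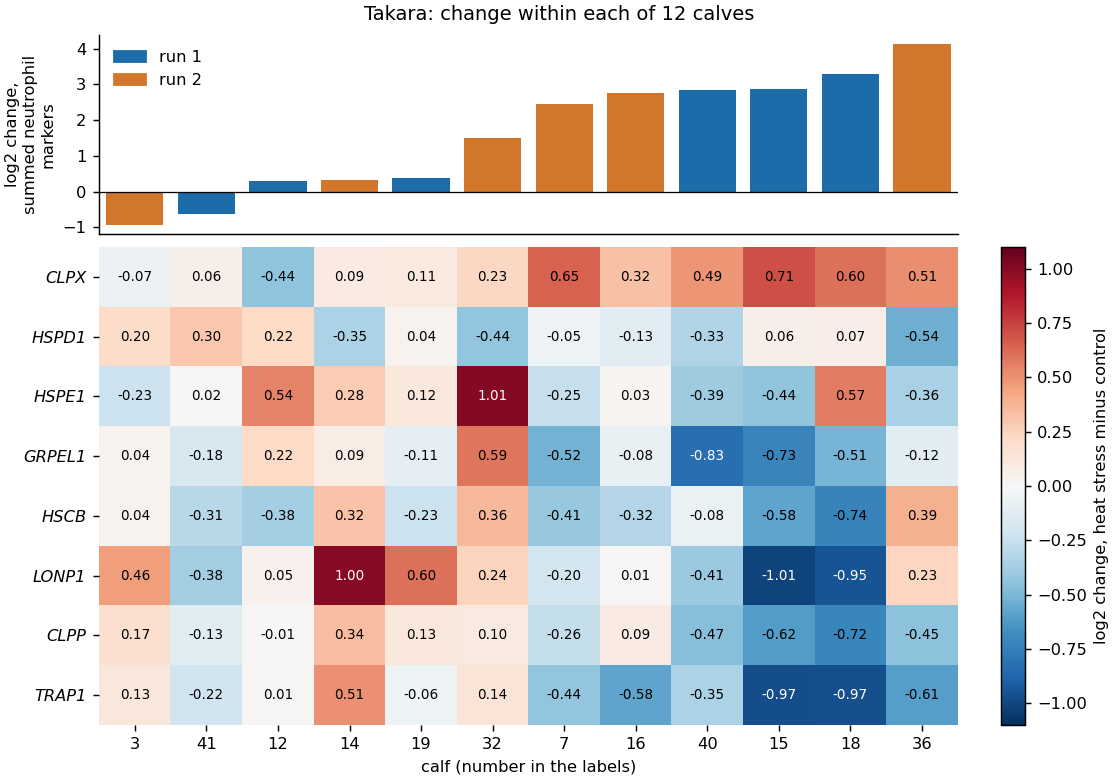
Log2 change from control to heat stress within each of 12 calves in the Takara libraries, with calves ordered from left to right by the change of the summed neutrophil markers, shown as bars coloured by run, and 1 row per member. CLPX is 0.32 or higher in the 6 calves on the right, where TRAP1 is -0.35 or lower. The heat stress libraries of these 6 calves have TMM scaling factors of 0.695 to 0.862, against 1.01 to 1.21 in the calves on the left.

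The sample numbers form 2 runs of different calves, 8 in run 1 and 7 in run 2, with a wide gap in the numbers between them. They were treated as a possible batch, although nothing in the labels names them one. LONP1 differed most between the runs in Takara, with a log2 fold change of -0.46 (SE 0.19) in run 1 and 0.32 (SE 0.21) in run 2. It was higher under heat stress in 2 of 6 calves of run 1 and in 5 of 6 calves of run 2. The test of the difference itself gave 0.76 (SE 0.29, unadjusted p = 0.0144, adjusted p = 0.179), so it was not called. TRAP1, GRPEL1, CLPP and HSCB also had lower values in run 1, from -0.58 to -0.31, than in run 2, from -0.06 to 0.14. CLPX was positive in both, 0.22 in run 1 and 0.36 in run 2. Of the members, 0 of 8 were called for a run difference by edgeR in Takara, with 1 at an unadjusted p under 0.05, beside 2.27% of all genes, and 0 of 8 in Lexogen, with 0 at an unadjusted p under 0.05, beside 0.0222%. The 312 Takara calls over all genes became 177 with the calf as a block. In Lexogen TRAP1 had -3.17 (SE 1.14) in run 1 and -0.21 (SE 1.13) in run 2, a difference of 2.87 (SE 1.66, adjusted p = 0.739).

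**Figure D5:**
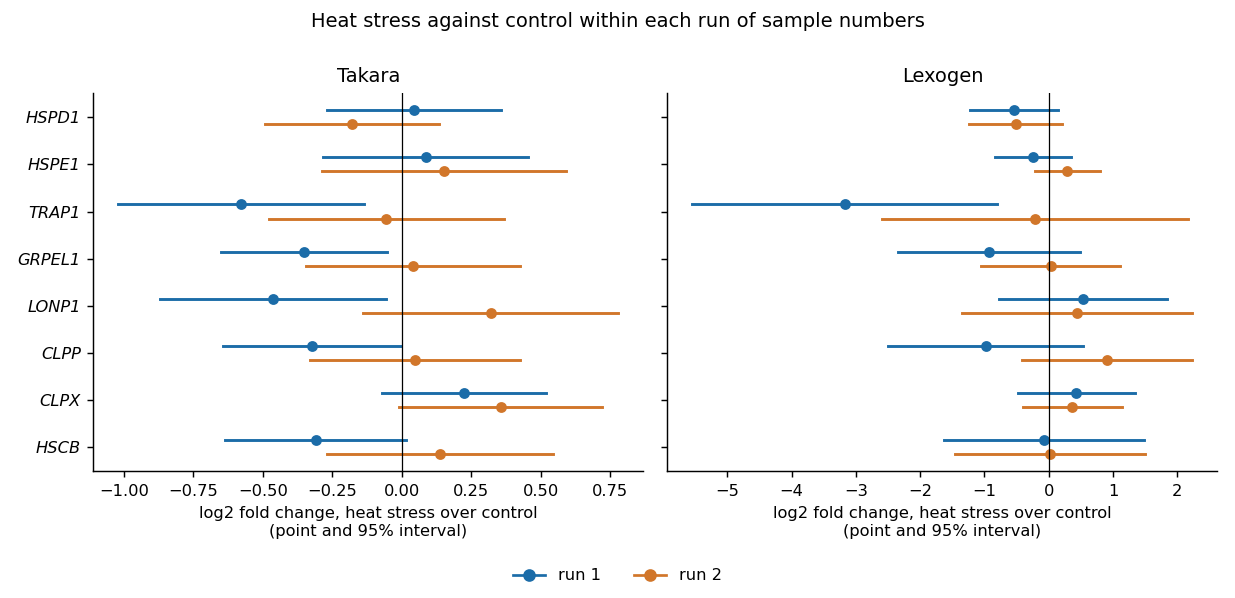
Log2 fold change of heat stress over control with its 95% interval on the x axis, fitted within run 1 and run 2 of the sample numbers, for each member in both kits. LONP1 lies on opposite sides of 0 in the Takara runs, and the x axis of the Lexogen panel is wider.

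Whether the kits differed in the heat effect was tested in the 24 RNA samples that both kits had sequenced, blocked by RNA sample. Of all genes, 0.0% were called by edgeR, with 526 at an unadjusted p under 0.05, and 0 of 8 members were called, with 0 at an unadjusted p under 0.05. HSPD1 had the smallest unadjusted p, 0.0589, for a Takara change 0.45 higher than the Lexogen change on the log2 scale (SE 0.23, interval -0.02 to 0.93, adjusted p = 1.0). For TRAP1 the interval of this difference ran from -1.03 to 3.13. In the 10 calves with both times in both kits, the change had the same sign in 7 calves for CLPX, TRAP1 and GRPEL1 and in 5 for HSPD1 and HSCB.

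The level of most members differed between kits in the same 24 RNA samples, as did that of most genes. By edgeR 5 members were called higher in Takara, beside 45.3% of all genes, and 1 lower, beside 26.3%, where 71.6% were called in all. TRAP1 was 12.3-fold higher in Takara (log2 difference 3.62, SE 0.51, adjusted p = 2.58e-07), and 2.19 on the log2 scale with sense counts (SE 0.19). CLPP was 5.98-fold higher (SE 0.27 on the log2 scale, adjusted p = 5.65e-10), GRPEL1 4.48-fold, LONP1 3.83-fold and HSCB 3.45-fold. HSPE1 was the exception among those called, at 0.561-fold of its Lexogen level (adjusted p = 3.61e-09). HSPD1 and CLPX were not called, with log2 differences of 0.18 (interval -0.07 to 0.43) and -0.29 (interval -0.69 to 0.10). HSPD1 was called higher in Takara with the total count as library size (0.48, adjusted p = 0.000809), and CLPX was called lower with sense counts (-0.53, adjusted p = 0.0171). The members with the lowest Lexogen counts, TRAP1, CLPP, HSCB and LONP1, also had the widest intervals for the heat effect in that kit.

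The other mitochondrial genes were taken list by list. In Takara, 0 of 7 tested genes of the mitochondrial HSP70 and its import motor were called higher and 1 lower, DNLZ, which keeps HSPA9 soluble, with a log2 fold change of -0.59 (adjusted p = 0.0101), and HSPA9 itself had -0.09 (adjusted p = 0.601). Among 15 other mitochondrial proteases 1 was called higher and 4 lower, beside 18.4% and 10.5% of all genes. LACTB rose by 0.61 (adjusted p = 0.00553), and IMMP2L, a subunit of the inner membrane peptidase, AFG3L2, a subunit of the m-AAA protease, and IMMP1L fell by 0.88, 0.46 and 0.36. IMMP2L was also called in Lexogen, where it fell by 0.72 (adjusted p = 0.0408), the only 1 of the 15 called there. With the calf as a block 1 protease was called higher and 2 lower in Takara, and 0 were called in Lexogen. Of 10 other chaperones and scaffolds 1 was called, the prohibitin PHB2, which fell by 0.59 (adjusted p = 0.00756). Of 11 genes of iron-sulfur cluster assembly 1 was called, the scaffold ISCU, which rose by 0.74 (adjusted p = 0.00291), while the list's median was -0.04. Of 13 genes of mitochondrial content 1 was called, the complex I subunit NDUFS1, higher by 0.36 (adjusted p = 0.0266), and with the block 0 were. In Lexogen 0 of 7, 0 of 8, 0 of 11 and 0 of 13 genes of these lists were called.

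Of the regulators of stress responses, 2 of 4 tested were called higher in Takara and 1 of 3 in Lexogen, beside 18.4% and 5.09% of all genes. Within run 1 the calls were again 2 and 1. Within run 2 they were 0 in both kits, where 931 genes in all were called in Takara and 0 in Lexogen. ATF4, a transcription factor of the integrated stress response, rose by 0.88 in Takara (adjusted p = 0.00113) and by 0.70 in Lexogen (adjusted p = 0.0103), where 0 of the 3 were called with the calf as a block. DDIT3 (CHOP), which ATF4 induces, rose by 1.08 in Takara (adjusted p = 0.000929) and had 0.41 in Lexogen (adjusted p = 0.544), where it was not called. CEBPB had 0.53 (adjusted p = 0.465) and HSF1, the regulator of the cytosolic heat shock genes, -0.45 (adjusted p = 0.19) in Takara, where ATF5 did not pass the filter on low counts. In Lexogen CEBPB and HSF1 did not pass it, and ATF5 had 0.70 (adjusted p = 0.61).

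Markers of the cell types of blood were measured beside the members. In Takara the neutrophil markers with the largest increases were ALPL with a log2 fold change of 3.41, MMP9 with 2.44 and S100A8 with 2.30. The T cell markers called lower were led by TCF7 with -0.63, CD3E with -0.55 and LEF1 with -0.53. Of 8 B cell markers 1 was called lower, BLK with -0.98, and of 8 monocyte markers 3 were called higher, CD163 with 1.62, CD68 with 0.76 and VCAN with 0.60. With the calf as a block, 6 T cell and 4 B cell markers were called lower and 1 monocyte marker higher. The 4 platelet and 2 erythroid markers tested had 0 calls in either kit, and HBA, AHSP and SLC4A1, which mark red blood cells, did not pass the filter. In Lexogen 0 of 11 T cell, 0 of 8 B cell and 0 of 8 monocyte markers were called.

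The genes whose level followed HSPD1 most closely over the 26 Takara libraries, after the mean of each time was taken off, were PCM1 (r = 0.84), PNN (0.74), AP1AR (0.73), RIF1 (0.72) and NDC1 (0.72), of 9686 genes ranked. These r are a description across libraries that share a kit and a pool. Over the 26 Lexogen libraries the same genes had r of -0.03, 0.26, 0.39, 0.51 and -0.01. HSPE1, the neighbour and partner of HSPD1, ranked 4112 in Takara with r = 0.09 and had r = 0.32 in Lexogen. CLPX was the member least like HSPD1 in Takara, with r = -0.31.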

How the data were processed

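The authors trimmed the forward reads with Trimmomatic 0.39, aligned them to ARS-UCD2.0 with STAR 2.7.10b and deposited raw counts of reads mapped to 1 place, per gene, in unstranded, sense and antisense columns. The column they analysed is not named, and unstranded counts were used here, with sense counts as an alternative. The 4 total lines above the genes were left out. Members and gene lists were chosen with earlier results of these data known. All members were named, and of each list up to 3 genes with the largest positive and 3 with the largest negative Takara change among those called.

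Times were compared with edgeR 4.0.16 (filterByExpr, TMM, quasi-likelihood test of time alone, 13 against 13 libraries per kit, Benjamini-Hochberg over all genes tested). The run and kit differences were interaction terms. DESeq2 1.42.0, other library sizes and filters, the calf as a block, a run covariate, fits within runs, both times for calf 20 and leaving out the deepest Lexogen library were alternatives. The same calf gave both times, which pairs the libraries; centred levels of a calf correlated over 0.1 in 11 of 12 pairs in Takara and 2 of 12 in Lexogen. Levels use log2(CPM + 0.5). Correlations over calves used 100000 permutations. On simulated data, the test of time recovered 97.4% of 4-fold changes in Takara and 71.4% in Lexogen, and the kit difference 46.2%. For the run difference 69.0% were recovered in Takara and 20.5% in Lexogen. Smaller changes were not simulated, so these shares do not give the power for changes as small as those of the members in Takara. The simulated libraries were drawn independently, without a shared effect of the calf. Without molecular identifiers, reads and not molecules were counted. For the RefSeq genes, positions and IDs came from the ARS-UCD2.0 annotation, and all 8 members matched.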

Additional observations from a re-analysis of the deposited data

Results flagged for a closer look

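The library of calf 20, which entered no comparison of the times, had 75.02 CPM of HSPD1 per total count in Takara, just above the highest of the 13 control libraries (74.2 CPM) and within the heat stress libraries (28.7 to 75.4 CPM). Its Lexogen library had 90.96 CPM, above all 13 heat stress libraries (12.4 to 58.5 CPM) and within the controls (25.7 to 124.4 CPM). The values were flagged because they come from a library outside the comparisons and, in Takara, lie above the controls.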

How the results depend on the processing

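Of 227 values recomputed for single members and their relations, 198 kept their direction and their side of the threshold, 21 changed sign, 7 passed the threshold newly and 1 lost it. The count of members called in Takara was 0, and became 1, CLPX, with DESeq2, with calf 20 as heat stress and with the run as a covariate. Over all genes, the 3646 Takara calls became 931 within run 2 and 0 with calf 20 as a control (3804 genes at an unadjusted p under 0.05). The 616 Lexogen calls became 3273 with all genes of at least 1 count, 1006 with DESeq2, 63 with the calf as a replicate block, 2 with calf 20 as a control, 402 within run 1 and 0 within run 2 (1275 genes at an unadjusted p under 0.05). The 312 Takara run differences became 177 in the paired fit. The block changed no member's call, and its effect on the gene lists stands beside their counts.

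None of the values that changed sign was called under heat stress or run difference in either fit. In Takara HSPD1 had 0.052 with calf 20 as heat stress and 0.044 within run 1, HSPE1 -0.089 and CLPX -0.0083 with the total count as library size, and within run 2 GRPEL1 had 0.042, LONP1 0.32, CLPP 0.047 and HSCB 0.14. In Lexogen HSPE1 had 0.0044 with the block, 0.29 within run 2 and 0.046 without the heat stress library of calf 15, HSCB had 0.016 with calf 20 as a control, 0.017 within run 2 and 0.0037 without calf 15, and within run 2 GRPEL1 had 0.031 and CLPP 0.91. The Lexogen run differences in the paired fit were -0.14 for HSPD1, 0.85 for LONP1 and 0.22 for CLPX. The kit level difference was -0.025 for HSPD1 with sense counts and 0.0073 for CLPX with the total count, and it passed the threshold for HSPD1 with the total count (0.48) and for CLPX with sense counts (-0.53). The causes were not tested. In Lexogen the standard errors of TRAP1, LONP1, CLPP and HSCB were 0.50 to 0.84.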

Other observations

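In the Takara library of calf 20, TRAP1 had 10.2 CPM per total count, LONP1 11.9 CPM and CLPP 18.4 CPM, each below all 26 other Takara libraries, whose lowest values were 13.7, 13.7 and 21.3 CPM. GRPEL1, with 38.1 CPM, and HSCB, with 17.7 CPM, were below all controls and within the heat stress libraries. CLPX, with 38.8 CPM, and HSPE1, with 137 CPM, were within both groups.

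No relation between the morning and evening level of a calf was detected for the members. Over 12 calves in each kit, 0 of 16 correlations between the control and heat stress level of a member passed the adjustment (adjusted p = 0.741 for each). The smallest unadjusted p was that of GRPEL1 in Lexogen, where r was negative (r = -0.57, permutation p = 0.0536, rho = -0.65 with p = 0.0257, r = -0.53 without the 2 farthest calves, -0.71 within run 1). The nearest in Takara was HSCB (r = 0.45, permutation p = 0.147, rho = 0.45 with p = 0.146, r = 0.36 without the 2 farthest calves, 0.74 and 0.62 within the runs). For HSPD1 in Takara, r was 0.34 (permutation p = 0.277, rho = 0.15 with p = 0.633, r = 0.25 without the 2 farthest calves, 0.69 and -0.0049 within the runs).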
